A study of Mus musculus with 9 samples.

Results

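The atrial myocyte marker genes described here are Myl4, Myl7, Sln, Mybphl, Bmp10, Gja5 and Tbx5. The list was given by name, with no cut on measured values, but with earlier results of these data known. All 7 were found among the 22851 genes of the mouse heart RNA-seq count table. The table held 9 libraries of myocardium from C57BL/6 mice in 3 groups of 3. Control check (CK) mice received buffer only. Diabetic cardiomyopathy (DCM) mice had type 1 diabetes for 12 weeks after streptozotocin, a toxin of the insulin-producing beta cells. Spermine (SPM) mice received the polyamine spermine before and during the same diabetic period. No genetic change was made in any group. The study's methods describe each sequenced sample in one place as hearts of single mice and in another as mixed hearts, so p-values measure the spread between libraries, which may be pools. Which chambers of the heart entered a library is not given in the sources used here.

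Atrial muscle builds its contractile apparatus from other gene copies than ventricular muscle. MYL7 is the regulatory and MYL4 the essential light chain of atrial myosin, MYBPHL is a myosin-binding protein of atrial and conduction myocytes, and sarcolipin (Sln) is a small membrane protein that inhibits the SERCA calcium pump. BMP10 is a secreted ligand of the adult right atrium that acts on endothelial ALK1 receptors, GJA5 (connexin 40) forms gap junctions in atrial and fast-conducting cells and in arterial endothelium, and TBX5 is a transcription factor of atrial and ventricular myocytes. Most of these genes are nearly silent in ventricular muscle, so in a library of heart tissue their levels follow both the amount of atrial muscle in the piece and the transcription of each gene. In such bulk samples, fewer atrial cells and less RNA per cell cannot be told apart.

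Between 29901300 and 39718680 reads were assigned to genes per library. Mitochondrial transcripts took 13.7 to 16.2% of them in the CK libraries, 15.5 to 18.9% in the DCM libraries and 21.01 to 21.09% in the SPM libraries. In SPM replicate 2, 66.3% of genes lay between the other 2 SPM libraries, compared with 15.6 to 38.7% for the other 8 libraries in their own groups, and of the 2656 genes without a read in SPM replicates 1 and 3 only 30 had a read there, compared with 485 to 1162 genes for the other libraries. All 7 markers in SPM replicate 2 lay between its companions, so its independence is in doubt and each count of called markers is also given without it. CK replicate 2 held lung epithelium transcripts, summing to 48.3 CPM (read counts scaled to a common library total) over 4 genes led by Scgb1a1 and at most 0.800 elsewhere. The extraction text of the labels speaks of retinas, while the tissue is labelled as heart, and ventricular myocyte genes led by Myl2 and Myl3 summed to 10980 CPM or more in every library.

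The marker genes lie apart in the genome. In GENCODE M21 coordinates (GRCm38), Myl4 (ENSMUSG00000061086) spans chr11:104550663-104595753 on the plus strand, with 8 annotated start sites. Myl7 (ENSMUSG00000020469) spans chr11:5896637-5898782 on the minus strand, Sln (ENSMUSG00000042045) chr9:53850164-53854560, Mybphl (ENSMUSG00000068745) chr3:108364911-108380057, Bmp10 (ENSMUSG00000030046) chr6:87428994-87437677, Gja5 (ENSMUSG00000057123) chr3:96904693-97077416 and Tbx5 (ENSMUSG00000018263) chr5:119832668-119885219, all on the plus strand. Their exonic bases are free of other genes in Myl7, Sln, Bmp10 and Tbx5. Antisense neighbours share 3 bases with Myl4, 89 with Mybphl and 165 with Gja5, and whether the counting used strand is not given in the sources used here.

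RefSeq promoter windows (GRCm38.p6, 250 bases before to 50 after the start) were matched for 5 of the 7 genes, not for Sln and Tbx5. Those of Myl4, Myl7 and Mybphl are shown because these genes moved together across libraries, and that of Bmp10 because it did not. The windows are chr11:104550413-104550712 (plus strand) for Myl4, chr11:5898733-5899032 (minus strand) for Myl7, chr3:108364661-108364960 (plus strand) for Mybphl and chr6:87428744-87429043 (plus strand) for Bmp10. Capitals mark the motifs searched on both strands, namely a CArG box in Myl7 and the motif AGATAA, read by zinc-finger factors such as GATA4, in Mybphl and Bmp10.
Myl4: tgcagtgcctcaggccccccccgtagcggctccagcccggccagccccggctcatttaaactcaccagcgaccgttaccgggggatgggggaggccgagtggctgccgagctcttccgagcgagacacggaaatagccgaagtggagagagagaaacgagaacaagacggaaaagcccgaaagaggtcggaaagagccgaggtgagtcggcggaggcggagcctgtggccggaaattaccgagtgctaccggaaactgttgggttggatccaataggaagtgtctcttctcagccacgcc
Myl7: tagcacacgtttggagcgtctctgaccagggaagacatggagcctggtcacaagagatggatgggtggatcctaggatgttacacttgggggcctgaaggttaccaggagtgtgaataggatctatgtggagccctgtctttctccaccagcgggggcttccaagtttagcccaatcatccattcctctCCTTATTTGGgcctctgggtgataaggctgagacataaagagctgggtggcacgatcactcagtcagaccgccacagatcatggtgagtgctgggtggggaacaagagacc
Mybphl: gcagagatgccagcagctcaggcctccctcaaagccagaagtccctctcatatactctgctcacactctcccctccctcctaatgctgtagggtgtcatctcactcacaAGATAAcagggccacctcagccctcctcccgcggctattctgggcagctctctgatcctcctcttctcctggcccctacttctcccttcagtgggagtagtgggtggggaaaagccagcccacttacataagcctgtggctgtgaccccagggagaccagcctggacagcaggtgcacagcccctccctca
Bmp10: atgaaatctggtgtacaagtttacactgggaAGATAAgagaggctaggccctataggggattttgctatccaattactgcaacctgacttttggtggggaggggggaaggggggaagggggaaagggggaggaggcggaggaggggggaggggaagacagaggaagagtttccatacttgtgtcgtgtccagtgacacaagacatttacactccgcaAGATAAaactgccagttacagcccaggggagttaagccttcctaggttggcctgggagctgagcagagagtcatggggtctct
The CArG box, read by serum response factor, began 61 bases before the Myl7 start and was present in 1.63% of 32851 promoter windows. AGATAA began 141 bases before the Mybphl start, and 219 and 33 bases before that of Bmp10, and was present in 11.2% of windows. Neither the T-box core AGGTGT (13.7% of windows), nor TATAAA (13.6%), nor a MEF2 site (0.557%) occurred in the 5 windows, and the Myl4 and Gja5 windows held none of the motifs searched. Myl4 has 8 annotated start sites and Gja5 2, and which of them was used in these hearts was not tested. So the windows of Myl4, Myl7 and Mybphl shared no searched motif, which says only that these exact letters are not common to them. TGATAA, present in the Myl7 window, was not among the motifs searched. Sln, which moved with these genes, had no window.

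Levels differed widely among the markers. In FPKM, the unit that scales fragments to gene length and library total, Myl7 was highest with a mean of 377 FPKM over the 9 libraries, followed by Sln at 89.5 FPKM, Myl4 at 89.1 FPKM, Mybphl at 27.9 FPKM, Tbx5 at 12.9 FPKM, Bmp10 at 10.3 FPKM and Gja5 at 0.0793 FPKM. Sln and Myl4 were close in every group. Sln lay above Myl4 in 3 of 3 CK and 2 of 3 DCM libraries and below it in 3 of 3 SPM libraries. Bmp10 exceeded Tbx5 only in CK replicates 1 and 2, and the rank of Myl7 above Myl4 held in all 9 libraries.

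The myosin light chain and sarcolipin transcripts were lowest in the DCM group. Levels are given as CPM normalized by the trimmed mean of M-values (TMM). Myl4 was 393, 305 and 442 CPM in CK replicates 1, 2 and 3, 125, 221 and 239 CPM in the DCM libraries and 208, 302 and 374 CPM in SPM. All 3 DCM libraries lay below all CK libraries, and the SPM libraries spread across both. Sln was 175, 130 and 182 CPM in CK, 46.8, 89.8 and 101 CPM in the DCM libraries and 76.5, 113 and 141 CPM in SPM. The same 2 statements held for it, with SPM replicate 1 as low as the DCM libraries. Mybphl was 51.5, 36.7 and 52.4 CPM in CK, 14.3, 26.6 and 27.7 CPM in the DCM libraries and 22.4, 37.2 and 50.1 CPM in SPM. Here again DCM lay wholly below CK. Myl7 was 254, 204 and 271 CPM in CK, 95.8, 196 and 202 CPM in the DCM libraries and 180, 265 and 334 CPM in SPM. DCM lay below CK here as well, but by a narrow margin, since DCM replicate 3 at 202 CPM almost met CK replicate 2 at 204 CPM, and the highest library of all was SPM replicate 3. A separation of the DCM from the CK libraries, in either direction, was found for 29.3% of all genes.

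**Figure D1:**
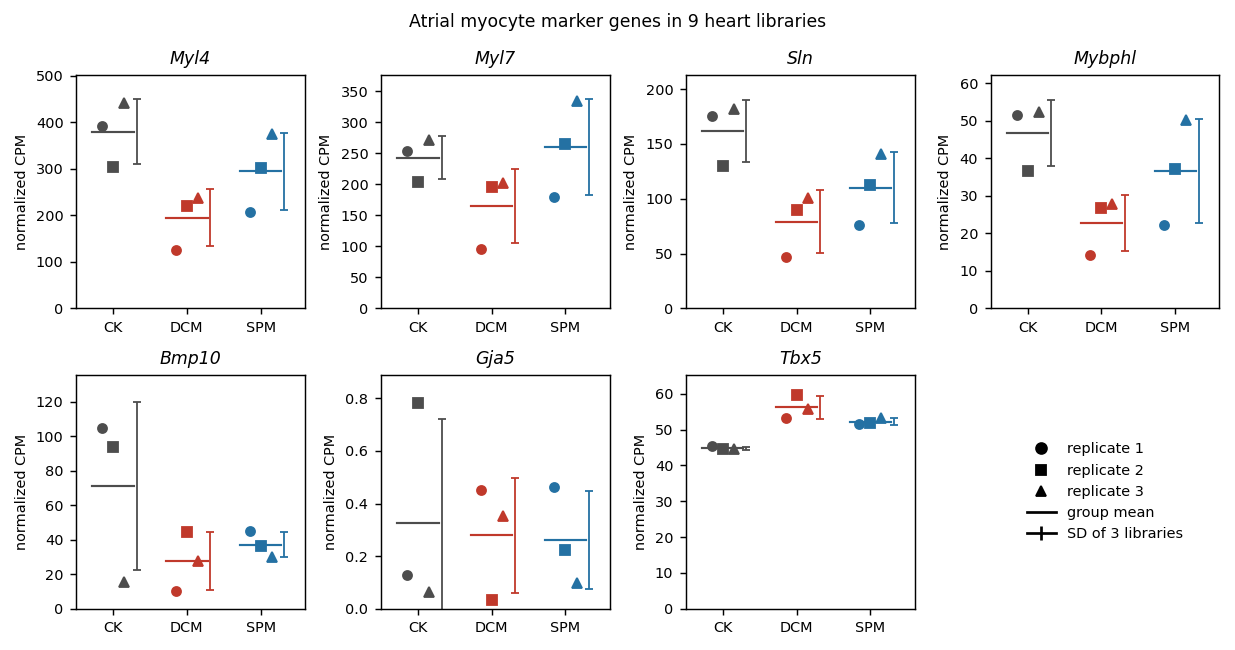
Normalized CPM (vertical axes, from 0) of the 7 atrial marker genes in CK, DCM and SPM hearts, with a symbol for each replicate, a line for the group mean and a bar for the SD of 3 libraries (drawn to 0 where it would pass below). Myl4, Myl7, Sln and Mybphl share 1 profile with DCM replicate 1 lowest, Bmp10 and Gja5 scatter within groups, and Tbx5 is lowest in the 3 CK libraries.

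These 4 genes also ordered the libraries alike within groups. In each of them replicate 2 was the lowest and replicate 3 the highest of CK, and replicate 1 the lowest and replicate 3 the highest of both DCM and SPM. The 4 lowest libraries were DCM replicate 1, SPM replicate 1, DCM replicate 2 and DCM replicate 3, in that order, for each of the 4 genes. From the lowest to the highest library they spanned 3.54-fold for Myl4, 3.49-fold for Myl7, 3.88-fold for Sln and 3.68-fold for Mybphl. Tbx5 spanned 1.34-fold.

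In DCM compared to CK, which sets diabetic against control myocardium, Myl4, Sln and Mybphl were called lower. Mybphl had a log2 fold change of -1.04 (SE 0.21, adjusted p = 0.00735 by the quasi-likelihood test of edgeR, Benjamini-Hochberg adjustment over 14402 genes). Sln fell by 1.04 on the log2 scale (SE 0.22, edgeR adjusted p = 0.00958), and Myl4 fell by 0.96 (SE 0.20, edgeR adjusted p = 0.00841). These 3 of 7 markers met both limits of a call, an adjusted p under 0.05 and a fold change of at least 1.5. Over all genes tested, 4.34% were called in either direction and 2.31% were called lower. The median log2 fold change was -0.96 for the 7 markers and -0.002 for all genes.

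The other markers were not called. Myl7 had a log2 fold change of -0.56 (SE 0.21, edgeR adjusted p = 0.121) although its groups did not overlap, as was the case for 29.3% of all genes. Bmp10 had -1.38 (SE 0.56, edgeR adjusted p = 0.148) and Gja5 -0.21 (SE 0.88, edgeR adjusted p = 0.923). Tbx5 went the other way, with a log2 fold change of 0.33 (SE 0.07, edgeR adjusted p = 0.0143), a 1.25-fold difference under the limit for a call. Its adjusted p was under 0.05, as for 10.4% of all genes. Tbx5 was 45.3, 44.7 and 44.5 CPM in CK, 53.2, 59.7 and 55.6 CPM in the DCM libraries and 51.7, 51.8 and 53.3 CPM in SPM, so all 6 diabetic libraries lay above all 3 controls. The share of all genes without overlap was 29.3% in DCM compared to CK and 46.3% in SPM compared to CK.

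The call of Myl4, Sln and Mybphl did not rest on the lowest library. Without DCM replicate 1 their log2 fold changes were -0.72, -0.76 and -0.78, and all 3 were still called, with edgeR adjusted p-values of 0.00729, 0.00488 and 0.0068, while that of Myl7 was -0.28 (edgeR adjusted p = 0.158). In that fit 4.07% of all genes were called.

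**Figure D2:**
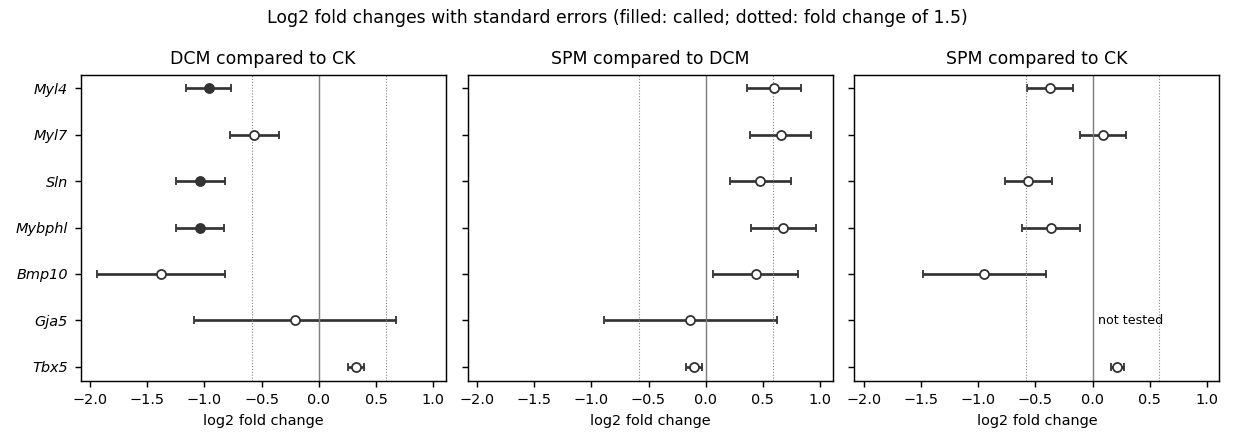
Log2 fold changes (horizontal axes) of the 7 markers in 3 comparisons, with bars of 1 standard error, filled points for called genes and dotted lines at a fold change of 1.5. The filled points are Myl4, Sln and Mybphl in DCM compared to CK, and Gja5 was not tested in SPM compared to CK.

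In SPM compared to DCM, which sets spermine-treated against untreated diabetic hearts, no marker was called by edgeR, while 3.59% of 14493 genes were. The 4 myofilament and sarcolipin genes were higher on average without passing the test. Mybphl had a log2 fold change of 0.68 (SE 0.28, edgeR adjusted p = 0.118), Myl7 of 0.66 (SE 0.27, edgeR adjusted p = 0.112), Myl4 of 0.60 (SE 0.24, edgeR adjusted p = 0.106) and Sln of 0.48 (SE 0.26, edgeR adjusted p = 0.224). The groups overlapped for all 7 markers, since SPM replicate 1 lay among the DCM libraries for these 4 genes, whereas 39.2% of all genes did not overlap. At an unadjusted p under 0.05, edgeR gave 3 markers (Myl4, Myl7 and Mybphl) and DESeq2 and limma gave 0, while edgeR gave 34.6% of all genes. Intervals of 2 standard errors ran from 0.12 to 1.07 for Myl4 and from 0.12 to 1.19 for Myl7. They ran from 0.11 to 1.25 for Mybphl and from -0.05 to 1.01 for Sln. Rises of up to 1.25 on the log2 scale therefore lay within these intervals. Bmp10 had a log2 fold change of 0.44 (SE 0.37, edgeR adjusted p = 0.435), Gja5 of -0.13 (SE 0.75, edgeR adjusted p = 0.92) and Tbx5 of -0.10 (SE 0.07, edgeR adjusted p = 0.31).

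The count of 0 changed with the libraries and the scaling. Without SPM replicate 1, 3 markers were called higher, with log2 fold changes of 0.79 for Myl4, 0.86 for Myl7 and 0.93 for Mybphl and edgeR adjusted p-values of 0.0236, 0.0283 and 0.0175, and 3.08% of all genes were called. Scaling to 9 general cardiomyocyte genes in place of TMM called the same 3 markers higher. Of that list 12 genes were named and 9 were in the count table. This scaling called 5.05% of all genes in either direction. The median log2 fold change of all genes moved to 0.17, and the value of Tbx5 turned to 0.07. Myh6, the largest part of the scale, averaged 23770 CPM in CK, 21020 CPM in DCM and 17200 CPM in SPM. Values under this scale, here and below, also carry the difference of Myh6 between groups. Without SPM replicate 2 the count was also 0, and 0.378% of all genes were called.

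Against CK, 6 markers were tested in SPM and none was called by edgeR, while 9.21% of 14574 genes were. Sln had a log2 fold change of -0.56 (SE 0.21, edgeR adjusted p = 0.0721), Myl4 of -0.37 (SE 0.20, edgeR adjusted p = 0.196), Mybphl of -0.36 (SE 0.25, edgeR adjusted p = 0.311) and Myl7 of 0.09 (SE 0.20, edgeR adjusted p = 0.761). Sln and Tbx5 had an unadjusted p under 0.05 by edgeR, only Tbx5 by DESeq2 and only Sln by limma. By edgeR 40.9% of all genes did. Tbx5 was higher in SPM by 0.22 on the log2 scale (SE 0.06, edgeR adjusted p = 0.023), under the fold-change limit and without overlap, whereas 27.4% of all genes were under the adjusted p limit at any fold and 46.3% did not overlap. Bmp10 had -0.95 (SE 0.54, edgeR adjusted p = 0.217). Without SPM replicate 2 the count was 0 (5.18% of all genes called). Without SPM replicate 3 it was 2 (10.6% of all genes called), Sln at -0.78 (edgeR adjusted p = 0.0137) and Mybphl at -0.66 (edgeR adjusted p = 0.0486). These comparisons share libraries and are not independent of each other.

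Since Myl4, Sln and Mybphl moved with Myl7 from library to library, their FPKM were divided by the Myl7 FPKM of the same library, a ratio that cancels a change shared by all 4 genes. This ratio was chosen after the data were seen. Sln stood at 30.8, 28.5 and 30.02% of Myl7 in CK, 21.9, 20.5 and 22.3% for DCM and 19.1, 19.1 and 18.9% in SPM. The 3 groups did not overlap, and the library-to-library span shrank from 3.88-fold for the Sln level to 1.63-fold for the ratio. Myl4 stood at 27.9, 27.0 and 29.5% of Myl7 in CK, 23.5, 20.4 and 21.3% for DCM and 20.9, 20.6 and 20.2% in SPM. Mybphl stood at 9.35, 8.33 and 8.95% in CK, 6.88, 6.29 and 6.35% for DCM and 5.76, 6.49 and 6.94% in SPM. For both genes every diabetic library, treated or not, lay below every control, and DCM and SPM overlapped.

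In log2 terms, the ratio to Myl7 was lower in DCM than in CK by -0.37 for Myl4, -0.46 for Sln and -0.45 for Mybphl, and in SPM compared to CK the differences were -0.45, -0.64 and -0.48. Each of these 6 differences had an exact two-sided permutation p of 0.1, the smallest that 3 against 3 libraries allow, so the design cannot reach 0.05. Adjusted over the 15 ratio comparisons this became 0.188. Between SPM and DCM, Sln relative to Myl7 was -0.18 (exact permutation p = 0.1), Myl4 -0.08 (exact permutation p = 0.3) and Mybphl -0.03 (exact permutation p = 1). A ratio to Myl7 lower in every library was found for 0.312% of all genes in DCM compared to CK, 6.26% in SPM compared to CK and 21.3% in SPM compared to DCM. Since Myl7 itself was low in DCM and high in SPM, these shares also carry its own difference between groups. Which of the 4 genes changed cannot be read from a ratio.

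**Figure D3:**
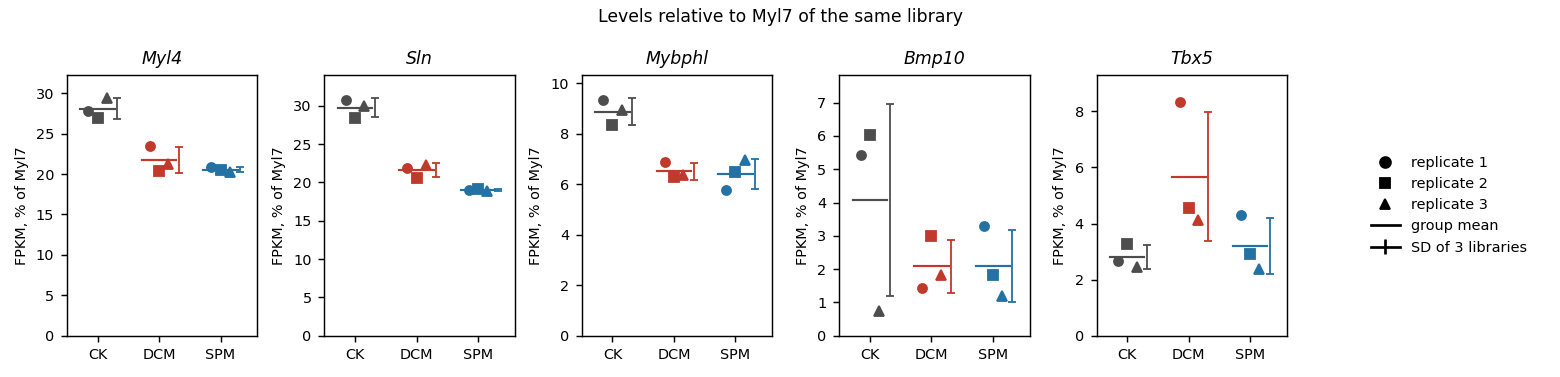
Levels of Myl4, Sln, Mybphl, Bmp10 and Tbx5 as a percentage of the Myl7 FPKM of the same library (vertical axes, from 0), with symbols for replicates, lines for group means and bars for the SD of 3 libraries. Myl4, Sln and Mybphl lie lower in all 6 diabetic libraries than in the 3 CK libraries, Bmp10 overlaps, and Tbx5 lies higher in the 3 DCM libraries than in the 3 CK libraries.

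Bmp10 did not share this profile. It was 105, 93.5 and 15.5 CPM in CK, 10.6, 44.6 and 27.9 CPM in the DCM libraries and 44.9, 36.5 and 30.1 CPM in SPM, a span of 9.95-fold. CK replicate 3, the highest control library for Myl4, Myl7, Sln and Mybphl, was the lowest for Bmp10 and the second lowest of all 9. Without CK replicate 3, Bmp10 was called lower both in DCM compared to CK (log2 fold change -1.86, edgeR adjusted p = 0.00445) and in SPM compared to CK (-1.43, edgeR adjusted p = 0.00387), where 4.73% and 8.97% of all genes were called. Relative to Myl7, Bmp10 stood at 5.43, 6.02 and 0.751% in CK, 1.45, 2.99 and 1.81% for DCM and 3.29, 1.81 and 1.18% in SPM.

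Gja5 had few reads in these libraries. Its read counts were 4, 28 and 2 in CK, 18, 1 and 12 in DCM, and 15, 7 and 3 in SPM, or 34, 31 and 25 reads per group. The value of 28 reads came from CK replicate 2, the library with lung epithelium transcripts, whose part in it was not tested. With an interval from -1.98 to 1.56 on the log2 scale for DCM compared to CK, a several-fold difference in Gja5 was not detectable at this depth. Whether the counting kept every read of Gja5 is not given in the sources used here, so its low counts may not reflect its level. Among the other connexins, Gjd3 was also low, at 0.0649 to 0.923 CPM across the 9 libraries, while Gja1 (connexin 43), the main gap junction protein of working myocytes, averaged 339 CPM in CK, 268 CPM in DCM and 322 CPM in SPM. The log2 fold change of Gja1 in DCM compared to CK was -0.34 (SE 0.08, edgeR adjusted p = 0.0182), under the fold-change limit, and none of the 4 other connexins listed (Gja1, Gja4, Gjc1, Gjd3) was called in any comparison.

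Across the 9 libraries the likeness of the profiles can be described by Pearson's r of log2 CPM. The points share libraries, depth and the group differences, and no p is given. Myl4 and Mybphl were each other's nearest among the 12605 genes considered (r = 0.993), and Sln was second to both (r = 0.989 with Myl4 and 0.984 with Mybphl). Myl7 was further off, at r = 0.923 with Myl4, 0.928 with Mybphl and 0.883 with Sln, and 8 other genes, led by Zhx3 (r = 0.979), were closer to it than any marker. Bmp10 reached r = 0.378 to 0.443 with these 4 and Tbx5 -0.267 to -0.603. The gene closest to Tbx5 was the cardiac potassium channel gene Kcnh2 (r = 0.985).

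The 10 genes closest to the mean profile of all 7 markers were Pik3cg, Olfr78, Tlr6, Arhgap22, Nsd2, Gtf3c3, Chmp5, Etv6, Plekhm3 and Ptk2, with r from 0.950 down to 0.892. Of them 7 recurred without SPM replicate 2. This mean is weighted by the wide log2 scatter of Bmp10 and Gja5, and with 12605 genes set against 9 libraries such values are a description only.

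Among 13 other genes enriched in atrial muscle, 10 were lower and 3 higher in DCM compared to CK. Over all genes tested, 7254 were lower, 7148 higher and 4.34% called. The 13 genes had a median log2 fold change of -0.14, and 1 was called. This was Cacna1d, which encodes the CaV1.3 calcium channel of atrial and pacemaker cells, at 5.96, 7.48 and 6.88 CPM in CK and 3.47, 3.55 and 3.84 CPM in DCM (log2 fold change -0.90, SE 0.17, edgeR adjusted p = 0.00474). Cacna1d kept its call without each of the 6 libraries in turn. Nppa, the gene of atrial natriuretic peptide, was 574, 347 and 487 CPM in CK and 301, 454 and 521 CPM in DCM, with overlapping groups (log2 fold change -0.14, SE 0.19, edgeR adjusted p = 0.712). Pam, the enzyme that amidates peptides and the most abundant gene of the list, averaged 944 CPM in CK, 986 CPM in DCM and 1235 CPM in SPM. The summed level of the 13 genes ran from 1559 to 1919 CPM in CK hearts and from 1423 to 1985 CPM in DCM hearts, overlapping. Pam and Nppa made up most of this sum. The 7 markers summed to 814 to 1024 CPM in CK and 346 to 653 CPM in DCM, led by Myl4 and Myl7.

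In SPM compared to DCM, 3 of the 13 atrial genes were called higher and 1 was called lower, while 3.59% of all genes were called. The median of the 13 log2 fold changes was 0.04. Nppa was 563, 720 and 851 CPM in SPM and rose by 0.74 (SE 0.19, edgeR adjusted p = 0.0292). Kcnj3, a subunit of the acetylcholine-activated potassium channel, rose by 0.61 (SE 0.15, edgeR adjusted p = 0.0242), and Cacna1d rose by 0.59 (SE 0.15, edgeR adjusted p = 0.0286). Hey1, a Notch-responsive repressor expressed in atrial muscle, fell by 0.63 (SE 0.15, edgeR adjusted p = 0.0231). With cardiomyocyte scaling the Hey1 call was lost (-0.44). None of these 4 calls was kept without SPM replicate 2, or without DCM replicate 2, and across all genes the calls dropped from 521 to 56 and to 73 in these fits.

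Against CK, Nppa in SPM was called higher, by 0.60 (SE 0.19, edgeR adjusted p = 0.0451) with overlapping groups. Hey1 and Nr2f1 were called lower in SPM than in CK, with log2 fold changes of -0.67 (SE 0.09, edgeR adjusted p = 0.00198) and -0.84 (SE 0.21, edgeR adjusted p = 0.0192). NR2F1 is an orphan nuclear receptor of atrial identity. The Hey1 call was kept without each of the 6 libraries in turn and lost with cardiomyocyte scaling (-0.45). The Nppa call was kept in 2 of the 6 fits without a library, being lost without CK replicate 2 or 3 and SPM replicate 2 or 3. The Nr2f1 call was kept in 4, being lost without SPM replicate 1 or 2, and it was lost with cardiomyocyte scaling (-0.64).

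Ventricular myocyte genes gave 0 calls by edgeR in any of the 3 comparisons among Myl2, Myl3, Irx4, Hey2 and Kcnip2. Over all genes tested, 4.34% were called in DCM compared to CK, 3.59% in SPM compared to DCM and 9.21% in SPM compared to CK. Hey2, a ventricular repressor, and Irx4, a ventricular homeobox factor, were higher in DCM than in CK by 0.57 (SE 0.14, edgeR adjusted p = 0.0214) and 0.45 (SE 0.09, edgeR adjusted p = 0.00902) on the log2 scale, under the fold-change limit. Myl3, the essential light chain of ventricular myosin, had 0.02 (SE 0.09, edgeR adjusted p = 0.933), and Myl2, the most abundant of the 5, had 0.16 (SE 0.09, edgeR adjusted p = 0.307). In SPM compared to DCM, Myl3 (-0.30, edgeR adjusted p = 0.0479) and Kcnip2 (-0.27, edgeR adjusted p = 0.0326) were lower. In SPM compared to CK, Myl3 (-0.29, edgeR adjusted p = 0.0188) and Kcnip2 (-0.30, edgeR adjusted p = 0.0088) were lower. There Irx4 (0.36, edgeR adjusted p = 0.0206) and Hey2 (0.58, edgeR adjusted p = 0.011) were higher. All these values were under the fold-change limit. Among 9 general cardiomyocyte genes led by Myh6, only Tcap, a Z-disc protein, was called in DCM compared to CK (log2 fold change 0.63, SE 0.08, edgeR adjusted p = 4.17e-04), a call lost without CK replicate 2.

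**Figure D4:**
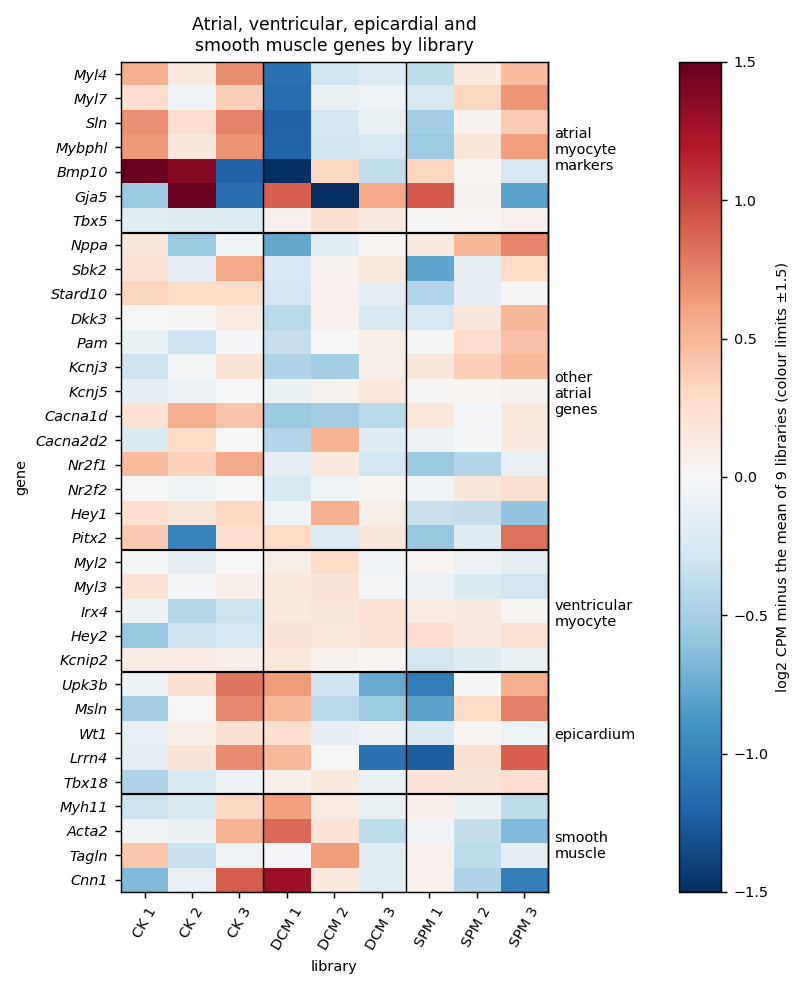
Log2 CPM of atrial, ventricular, epicardial and smooth muscle genes (rows) in 9 libraries (columns), each minus its mean over the libraries, in colour from blue (below the mean) to red (above it), with colours capped at 1.5. DCM replicate 1 is below the mean for Myl4, Myl7, Sln, Mybphl, Bmp10 and Nppa and above it for the epicardial genes and for Acta2, Myh11 and Cnn1.

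Genes of other tissues that heart samples can hold also varied between libraries. Epicardial genes (Upk3b, Msln, Wt1, Lrrn4, Tbx18) summed to 51.4, 64.5 and 92.4 CPM in CK, 83.6, 50.7 and 39.8 CPM in the DCM libraries and 35.6, 63.7 and 86.5 CPM in SPM. Within SPM they followed the order of the 4 myofilament and sarcolipin genes, and within DCM they ran against it. Smooth muscle genes led by Acta2 summed to 302, 305 and 463 CPM in CK, 579, 380 and 282 CPM in the DCM libraries and 339, 283 and 229 CPM in SPM. They were highest in DCM replicate 1, the lowest library for Myl4, Myl7, Sln, Mybphl and Bmp10, but not for Gja5 and Tbx5. Within CK they were highest in replicate 3, which was also the highest CK library for Myl4, Myl7, Sln and Mybphl. In this list Tagln was at most 0.711 CPM, a value subject to the same limit of counting as that of Gja5. Adipocyte genes led by Cfd summed to 13.2 to 124 CPM with the highest value in CK replicate 2, ganglion and nerve sheath genes led by Dbh to 9.53 to 14.5 CPM, and skeletal muscle genes led by Mylpf to 1.27 to 2.98 CPM. None of the genes of the epicardial, smooth muscle, adipocyte, lung and nerve lists was called in any comparison. The amount of atrial tissue in each library was not tested.

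Conduction system genes, which are partly atrial, gave 2 calls of 7 tested in DCM compared to CK, where 4.34% of all genes were called. Cacna1g (CaV3.1, a T-type calcium channel) fell from a mean of 26.6 CPM to 17.0 CPM (log2 fold change -0.64, SE 0.09, edgeR adjusted p = 0.00104), and Irx3, a transcription factor of the ventricular conduction system, rose from 27.2 to 54.0 CPM (0.99, SE 0.09, edgeR adjusted p = 3.36e-05). Both were called in the same directions in SPM compared to CK, at -0.73 (SE 0.10, edgeR adjusted p = 0.00179) and 0.79 (SE 0.08, edgeR adjusted p = 7.76e-04). In that comparison 9.21% of all genes were called. There Hcn4, the pacemaker channel, was also called lower (-0.71, SE 0.19, edgeR adjusted p = 0.0252), a call kept in 2 of the 6 fits without a library, being lost without CK replicate 2 or 3 and SPM replicate 1 or 2. With cardiomyocyte scaling the calls of Hcn4 (-0.53) and Cacna1g (-0.53) in SPM compared to CK were lost.

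Among relatives of the light chain and binding protein markers, Myl1 and Mybpc2 were called lower in DCM and in SPM than in CK. Myl1, an essential light chain of fast skeletal muscle, was 37.3, 38.9 and 34.9 CPM in CK, 12.1, 18.6 and 16.7 CPM in the DCM libraries and 14.3, 17.2 and 20.8 CPM in SPM. Its log2 fold change was -1.23 (SE 0.13, edgeR adjusted p = 1.29e-04) in DCM compared to CK and -1.09 (SE 0.13, edgeR adjusted p = 0.00116) in SPM compared to CK. Mybpc2, the fast-type myosin-binding protein C, was 41.2, 20.0 and 35.5 CPM in CK, 11.8, 16.3 and 12.3 CPM in the DCM libraries and 10.3, 12.0 and 12.2 CPM in SPM. Its log2 fold change was -1.26 (SE 0.22, edgeR adjusted p = 0.00304) in DCM compared to CK and -1.49 (SE 0.23, edgeR adjusted p = 0.0032) in SPM compared to CK. All 6 diabetic libraries lay below all 3 controls for both genes. Groups without overlap, in either direction, were found for 29.3% of all genes in DCM compared to CK and 46.3% in SPM compared to CK. Myl1 and Mybpc2 were 1 of 10 light chain and kinase genes and 1 of 2 tested binding protein genes called in DCM compared to CK. Over all genes tested, 4.34% were called there. Mybpc3, the cardiac form, had 0.22 (SE 0.10, edgeR adjusted p = 0.213). Mylpf, the regulatory light chain of fast skeletal muscle, had -0.60 (SE 0.35, edgeR adjusted p = 0.328) and Mylk2, the skeletal light chain kinase, 0.60 (SE 0.67, edgeR adjusted p = 0.646). In a separate skeletal muscle list, of which Tnnt3, Mylpf and Actn3 were tested, Actn3 alone was called. It was lower in SPM than in DCM (-1.60, SE 0.46, edgeR adjusted p = 0.0413) and lower in SPM than in CK (-1.45, SE 0.45, edgeR adjusted p = 0.0416), at most 1.105 CPM in any library. Each of these Actn3 calls was kept in 1 of 6 fits without a library, that without SPM replicate 3, and lost with cardiomyocyte scaling (-1.47 and -1.26).

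Around sarcolipin, no pump gene was called in any comparison. Atp2a2, the cardiac SERCA pump, averaged 12240 CPM in CK, 10510 CPM in DCM and 9793 CPM in SPM, with log2 fold changes of -0.22 (SE 0.09, edgeR adjusted p = 0.151) in DCM compared to CK and -0.33 (SE 0.08, edgeR adjusted p = 0.0142) in SPM compared to CK, under the fold-change limit. Atp2a3, another SERCA pump, was higher in DCM than in CK by 0.54 (SE 0.09, edgeR adjusted p = 0.00233) and in SPM than in CK by 0.29 (SE 0.06, edgeR adjusted p = 0.0121), without overlap and under the fold-change limit. Mrln, the gene of the related inhibitor myoregulin, had a mean of 0.875 CPM in CK and 0.178 CPM in DCM (log2 fold change -2.29, SE 0.53, edgeR adjusted p = 0.0165), a call at a low level that was lost without CK replicate 2, DCM replicate 1 or DCM replicate 3. It was called in SPM compared to CK as well (-1.72, SE 0.39, edgeR adjusted p = 0.014), but not without SPM replicate 2. Phospholamban (Pln) was listed but not found in the count table, so it was not analysed here. Of the listed pump and regulator genes, 4 of 6 were found.

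Around Bmp10, 1 of 18 ligand, receptor, SMAD and target genes was called in DCM compared to CK and 0 in SPM compared to DCM. Over all genes tested, 4.34% and 3.59% were called. Smad9, a signal transducer of BMP receptors, rose by 0.61 (SE 0.15, edgeR adjusted p = 0.0215) in DCM, a call lost without CK replicate 2, DCM replicate 1 or DCM replicate 2, and with cardiomyocyte scaling (0.65). In SPM compared to CK, Bmpr2, the type II receptor, rose by 0.66 (SE 0.12, edgeR adjusted p = 0.00505), lost without CK replicate 1, and Smad9 by 0.60 (SE 0.14, edgeR adjusted p = 0.0155), lost without CK replicate 2, SPM replicate 1 or SPM replicate 2. Eng (endoglin), the co-receptor of BMP10 and the most abundant gene of the list, averaged 395 CPM in CK, 421 CPM in DCM and 374 CPM in SPM. The BMP targets Id1, Id2 and Id3 were not called in any comparison.

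Around Tbx5, 7 of 8 partner factors were higher in DCM than in CK. Over all genes tested, 7148 were higher, 7254 lower and 4.34% called. Of the 8 factors, 1 was called. This was Sall4, a zinc-finger factor that acts with TBX5, with a mean of 1.78 CPM in CK, 3.16 CPM in DCM and 1.84 CPM in SPM. It rose by 0.83 (SE 0.24, edgeR adjusted p = 0.0432) in DCM compared to CK and fell by 0.78 (SE 0.21, edgeR adjusted p = 0.0353) in SPM compared to DCM. The first call was lost without any of the 6 libraries and the second without any but SPM replicate 3, and both were lost with cardiomyocyte scaling (0.86 and -0.62). Gata4, the most abundant partner, was 160, 162 and 155 CPM in CK and 190, 192 and 174 CPM in DCM (log2 fold change 0.22, SE 0.07, edgeR adjusted p = 0.0623).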

How the data were processed

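RNA-seq of mouse heart was measured in 3 libraries each of CK, DCM and SPM. The labels assigned every library to its group. The authors deposited a table of raw read counts per gene for all libraries and a table of FPKM per library, which equalled counts over gene length and library total within a relative deviation of 8.6e-13. The study names fastp 0.18.0 for read filtering, and the submitters' processing notes list Bowtie 0.12.2 and the builds mm8 and mm9 with no stated role. Gene symbols and coordinates came from GENCODE M21, which held 22844 of 22851 identifiers.

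Each pair of groups was fitted on the whole table with edgeR 4.0.16 (R 4.3.3; filterByExpr, TMM, glmQLFit and glmQLFTest), after the script had been tested on simulated data. A gene was called at a Benjamini-Hochberg adjusted p under 0.05 and a 1.5-fold or larger change, which are the study's limits. DESeq2 1.42.0, limma 3.58.1 on log2 of FPKM plus 0.1, other scalings and filters, a GC offset, a replicate block and fits without each library were alternatives. Named genes were the 7 markers, the called and the most abundant genes of the other lists, and the 10 genes closest to the mean profile of the markers (mean of at least 1 CPM). Markers and lists were chosen with earlier results of these data known. No library was left out of the main comparisons. The study names no pairing by replicate number, and the main comparisons used none. Correlations of libraries' deviations from group means ran from -0.0746 to 0.205 for same-numbered libraries of different groups. For differently numbered ones they ran from -0.284 to 0.217. Such values cannot show how the libraries were processed. A total of 29901300 to 39718680 reads per library set the precision, and p-values cover the spread between 3 libraries only. Promoter windows came from RefSeq (GRCm38.p6). Some results are not reported here.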

Additional observations from a re-analysis of the deposited data

How the results depend on the processing

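In DCM compared to CK, 3 markers were called as reported and 3 or 4 under every alternative run. Bmp10 was added with no low-count filter and without CK replicate 3, and Tbx5 with no fold-change limit. Leaving out 1 library gave 3 to 4 calls. In SPM compared to DCM the count of 0 moved to 3 with scaling to general cardiomyocyte genes and with the replicate block, each time Myl4, Myl7 and Mybphl, and ran from 0 to 3 when a library was left out. In SPM compared to CK the count of 0 moved to 1 with the replicate block and with limma on FPKM (Sln), and to 1 with no fold-change limit (Tbx5), and ran from 0 to 2 when a library was left out. The replicate block called 568, 610 and 1282 genes in the 3 comparisons in place of 625, 521 and 1342. Gja5 changed sign in DCM compared to CK with the replicate block (0.17), without CK replicate 2 (1.54) and without the DCM library of that number (0.27), and in SPM compared to DCM with cardiomyocyte scaling (0.025) and when DCM replicate 1 (0.39), DCM replicate 3 (0.03) or SPM replicate 3 (0.25) was left out. Its fits without 1 library ranged from -0.733 to 1.54 and from -0.827 to 0.392 in these comparisons. Tbx5 changed sign in SPM compared to DCM with cardiomyocyte scaling (0.067). Myl7 changed sign in SPM compared to CK with limma on FPKM (-0.041), without CK replicate 2 (-0.03) and without SPM replicate 3 (-0.14), its fits without 1 library ranging from -0.136 to 0.298. The cause of these shifts was not tested. Over all genes, the calls in SPM compared to DCM fell to 126 with a GC offset and ranged from 56 to 791 when a library was left out; none of these fits bears on a marker call there except that without SPM replicate 1. With 1 to 28 reads per library, Gja5 limits any statement about it.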
